A study of Mus musculus with 22 samples.

Results

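The circadian clock genes described here are Per1, Per2, Per3, Cry1, Cry2, Nr1d1, Nr1d2, Dbp, Tef and Arntl, and their members were the rows of the deposited table of ac4C peaks that carry one of these 10 gene names. Per1 and Tef had such a row and the other 8 genes had none. The 2 genes held 3 of the 9857 peaks in the table, which together carried 4909 gene names. The table lists called peaks, so a missing row gives no level for Per2, Per3, Cry1, Cry2, Nr1d1, Nr1d2, Dbp or Arntl.

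N4-acetylcytidine (ac4C) is an acetyl mark on cytidines of RNA that is written by the enzyme NAT10. In acRIP-seq, an antibody against ac4C enriches the RNA fragments that bear the mark, and these are sequenced as the IP library. The study used this assay and RNA-seq to ask how ac4C differs in the diabetic kidney. The kidneys of 6 db/db mice, a model of obesity and type 2 diabetes through loss of the leptin receptor, were set against those of 5 heterozygous db/m mice without diabetes. According to the study's methods its db/db and db/m mice were male, and no treatment is given in the labels of these samples. Both an IP and an RNA-seq library (input in the table) were made of each of the 11 animals, 22 libraries in all. The IP libraries held 7577171 to 10293757 reads in peaks, with medians of 8655784 for db/db and 9538887 for db/m. The RNA-seq libraries held 3151035 to 3352535, with medians of 3206332 for db/db and 3225076 for db/m. The age at collection and the hour of the day at which the kidneys were taken are not given in the sources used here.

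Both libraries of 1 animal stood apart from the others of its genotype. For db/m animal 2, the median correlation with the other libraries of its genotype, over peaks that averaged 50 reads or more, was 0.921 in IP and 0.951 in RNA-seq. The other db/m libraries had values from 0.963 to 0.969 in IP and from 0.984 to 0.988 in RNA-seq. The db/db libraries were also looser than these, with values from 0.936 to 0.956 in IP and from 0.954 to 0.973 in RNA-seq. Values that rest on db/m animal 2 are given with and without it.

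The mammalian clock is a feedback loop. The proteins of Arntl (BMAL1) and Clock bind E-box sequences and switch on the Per and Cry genes, whose proteins return to the nucleus and block that activity. Nr1d1 and Nr1d2 (REV-ERB alpha and beta) repress Arntl, and Dbp and Tef encode related leucine zipper factors that carry the rhythm to output genes through D-box sequences. The transcripts of many of these genes rise and fall over the day. In the kidney, the clock is known for its influence on the transport of sodium and water along the tubule. Per1 can also be switched on by glucocorticoid hormones.

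Both genes with a peak hold an E-box near a start of transcription, and 2 such windows are shown because the E-box is the sequence through which the clock acts on its own genes. They are the 250 bases before a RefSeq start on the plus strand of GRCm38.p6, at chr11:69098699-69098948 for Per1 and at chr15:81811164-81811413 for Tef, with the E-box in capitals.
Per1: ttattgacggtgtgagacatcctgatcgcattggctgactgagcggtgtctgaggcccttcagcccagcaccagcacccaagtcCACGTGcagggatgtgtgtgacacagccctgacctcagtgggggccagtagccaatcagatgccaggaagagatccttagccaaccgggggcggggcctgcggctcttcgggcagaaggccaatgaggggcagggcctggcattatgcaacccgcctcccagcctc
Tef: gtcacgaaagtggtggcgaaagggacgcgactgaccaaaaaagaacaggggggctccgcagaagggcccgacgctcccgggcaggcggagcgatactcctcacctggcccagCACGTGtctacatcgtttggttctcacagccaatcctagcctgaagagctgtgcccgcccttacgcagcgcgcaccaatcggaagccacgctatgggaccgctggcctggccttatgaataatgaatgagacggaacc
The E-box began 166 bases before the start in Per1 and 138 bases before it in Tef. Of the 4 windows listed for these genes, 3 held an E-box (CACGTG, the same on both strands), and the other window of Tef held it 127 bases before its start. The exception was the Per1 window at chr11:69099902-69100151. E-boxes were found in 6.02% of all 32851 windows of this length. Neither a D-box (TTATGTAA on either strand, in 0.819% of windows) nor a cyclic AMP response element (TGACGTCA, in 1.55%) was found in these 4 windows. These matches describe letters in the reference sequence and say nothing of binding in these kidneys.

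The ac4C peaks lay at different places in the 2 genes. Per1 (ENSMUSG00000020893), the repressor of the loop, spans chr11:69095108-69109965 on the plus strand of GRCm38 and is 14858 bases long. Its longer peak, from the list called in db/db mice, covered chr11:69108433-69109361 (929 bases) and ended 604 bases before the end of the gene. Its shorter peak, from the list called in db/m mice, covered chr11:69108493-69109241 (749 bases) and lay wholly inside the longer one, which held 180 further bases. Reads in the shorter peak were therefore counted in both, and the 2 Per1 peaks are not independent. Tef (ENSMUSG00000022389), the output factor, spans chr15:81802673-81826863 and is 24191 bases long. Its only peak, from the db/db list, covered chr15:81811656-81812213 (558 bases), began 242 bases after the nearest RefSeq start and lay 14650 bases before the end of the gene. No other RefSeq gene and no peak of another gene overlapped these peaks. The annotation used here holds no exons, so whether a peak lies in coding sequence is not given.

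**Figure D1:**
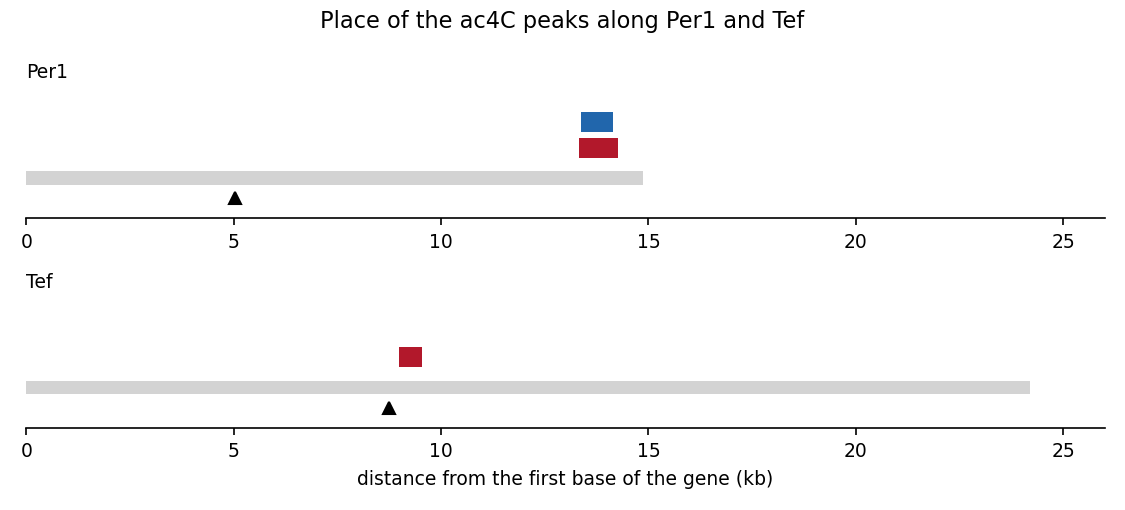
Place of the ac4C peaks along Per1 and Tef, with the distance from the first base of the gene in kb on the horizontal axis. Grey bars are the genes, red bars are peaks of the db/db list, the blue bar is the peak of the db/m list, and triangles mark the nearest RefSeq start before the peak. The Per1 peaks lie near the end of the gene, 604 and 724 bases from it, and the Tef peak lies 242 bases after a start.

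The authors' fold enrichment of IP over input was 5.22 for the longer and 5.40 for the shorter Per1 peak and 4.19 for the Tef peak, against a median of 5.09 over all peaks. The ratio of IP to RNA-seq reads was also computed from CPM, the read count of a peak scaled to the TMM-adjusted library size, so that 1 is the level of the table as a whole and not the absence of ac4C. Taken as the mean IP CPM over the mean RNA-seq CPM of the 11 animals, this ratio was 1.38 for the longer Per1 peak, 1.74 for the shorter one and 2.03 for Tef. Among the 6724 peaks that averaged 10 or more RNA-seq reads, 67.2%, 79.9% and 85.7% had a lower ratio, and the median was 1.07.

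Per1 RNA was higher in the db/db kidney. The longer Per1 peak held 108 to 167 RNA-seq reads in the db/db libraries, with CPM of 32.8 at the lowest, 34.6 at the median and 52.3 at the highest. In db/m animals 1 to 5 it held 75, 34, 41, 52 and 79 reads, or 24.1, 10.7, 13.4, 16.6 and 25.0 CPM. All 6 db/db animals lay above all 5 db/m animals, with db/db animals 4 and 5 highest and db/m animals 2 and 3 lowest. The means were 39.2 ± 8.45 CPM (SD, n = 6) and 18.0 ± 6.37 CPM (SD, n = 5). The log2 fold change was 1.12 (SE 0.21, 95% interval 0.67 to 1.57), a 2.18-fold difference, with an adjusted p of 0.00153 by the quasi-likelihood test of edgeR, adjusted over all peaks after Benjamini and Hochberg. The two-sided exact permutation test over the 462 splits of the animals gave p = 0.00433, the smallest it can give when the one-sided p is doubled.

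Peaks were called at an adjusted p under 0.05 and an absolute log2 fold change over 1. In RNA-seq, 2 of the 3 clock gene peaks were called, both of Per1 and both higher in db/db mice. Of all 9857 peaks, 3.95% were called and 1.98% were called and higher in db/db mice. Groups without overlap and with db/db higher were seen in the same 2 Per1 peaks, against 3.55% of all peaks. The shorter Per1 peak held 68 to 125 reads in db/db and 20 to 58 in db/m libraries, and its log2 fold change was 1.16 (SE 0.26, adjusted p = 0.00525, edgeR). Without db/m animal 2, which had the lowest Per1 level, the log2 fold change was 0.99 for both peaks, just under the fold threshold, with adjusted p of 0.00174 for the longer and 0.00689 for the shorter peak in edgeR. With any other animal left out both peaks were called, and over all 11 such fits the log2 fold change of the longer peak ranged from 0.99 to 1.27.

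Tef was not called in RNA-seq, and whether its change differs from that of Per1 was not tested. Its peak was shallow, with 10 to 26 RNA-seq reads in the db/db libraries, and CPM of 3.16 at the lowest, 5.40 at the median and 8.15 at the highest. In db/m animals 1 to 5 it held 11, 29, 15, 9 and 14 reads, or 3.53, 9.14, 4.91, 2.87 and 4.44 CPM. The groups overlapped over most of their range, and the highest value of all was that of db/m animal 2, the animal with the least Per1. The means were 5.54 ± 2.07 CPM (SD, n = 6) and 4.98 ± 2.46 CPM (SD, n = 5). The log2 fold change was 0.15 (SE 0.32), with a 95% interval from -0.52 to 0.83 and an adjusted p of 0.81 in edgeR's quasi-likelihood test, and the exact permutation p was 0.61. Without db/m animal 2 the log2 fold change was 0.50 (adjusted p = 0.341, edgeR). Per base, the Per1 peak carried more RNA-seq reads than the Tef peak in db/db mice, with mean levels of 42.2 ± 9.09 and 9.93 ± 3.72 CPM per kb (SD, n = 6). The same levels in db/m mice were 19.3 ± 6.86 and 8.92 ± 4.40 CPM per kb (SD, n = 5).

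**Figure D2:**
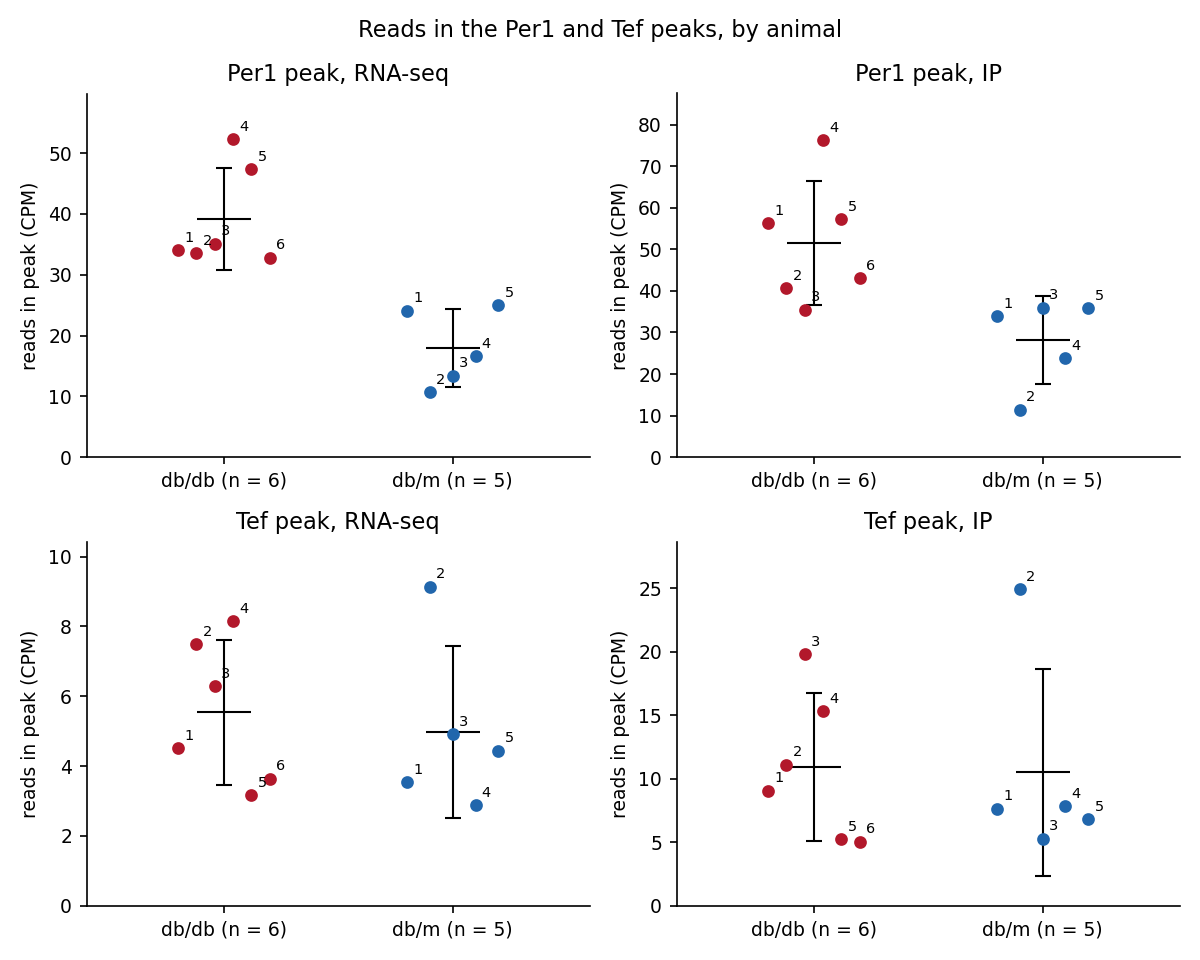
Reads in the longer Per1 peak and in the Tef peak, as CPM on a linear axis from 0, for RNA-seq (left) and IP (right). Each point is 1 animal with its number, and bars give the mean and SD of 6 db/db and 5 db/m mice. In RNA-seq the db/db animals lie between 32.8 and 52.3 CPM for Per1 and the db/m animals between 10.7 and 25.0, while the Tef groups overlap.

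IP reads over Per1 were also more numerous in db/db mice, but they were not called. The longer Per1 peak had IP levels of 35.5 CPM at the lowest, 49.7 at the median and 76.3 at the highest in db/db mice. In db/m animals 1 to 5 the IP levels were 33.9, 11.4, 36.0, 23.8 and 35.9 CPM. The groups met only where db/db animal 3, at 35.5, fell just under db/m animals 3 and 5. The means were 51.5 ± 14.9 CPM (SD, n = 6) and 28.2 ± 10.6 CPM (SD, n = 5). The log2 fold change was 0.87 (SE 0.28, 95% interval 0.29 to 1.45), with an adjusted p of 0.0726 in edgeR's quasi-likelihood test and an exact permutation p of 0.013. For the shorter Per1 peak it was 0.77 (SE 0.29, adjusted p = 0.135, edgeR). Without db/m animal 2 these differences were 0.67 and 0.56.

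Tef IP reads overlapped between the genotypes. The Tef peak had IP levels of 5.04 CPM at the lowest, 10.1 at the median and 19.8 at the highest in db/db mice. In db/m animals 1 to 5 the levels were 7.63, 24.9, 5.27, 7.83 and 6.79 CPM, so that animal 2 lay far above the other 4. The means were 10.9 ± 5.80 CPM (SD, n = 6) and 10.5 ± 8.13 CPM (SD, n = 5), and the log2 fold change was 0.06 (SE 0.43, adjusted p = 0.975, edgeR). Without db/m animal 2 it was 0.66 (adjusted p = 0.342, edgeR). In IP, 0 of the 3 clock gene peaks were called by edgeR or by DESeq2, and 2 had an unadjusted p under 0.05 in edgeR, both of Per1. Of all peaks, 3.32% were called in IP, and 2.78% had groups without overlap and db/db higher, as did 0 of these 3.

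The IP signal relative to the RNA of the same animal did not pass the test for any clock gene peak. The ratio of IP to RNA-seq CPM over the longer Per1 peak averaged 1.31 ± 0.223 (SD, n = 6) for db/db and 1.61 ± 0.624 (SD, n = 5) for db/m. It ranged from 1.01 to 1.65 among db/db mice, whereas 4 db/m animals had ratios from 1.07 to 1.44 and animal 3 reached 2.69. The difference of the log2 ratios was -0.24 (SE 0.21, 95% interval -0.65 to 0.17) for the longer Per1 peak, -0.36 (SE 0.23) for the shorter one and -0.04 (SE 0.38, 95% interval -0.78 to 0.70) for Tef. The adjusted p in edgeR's interaction test were 0.857, 0.792 and 0.99. None of the 3 peaks was called by edgeR, DESeq2 or limma, 0 had an unadjusted p under 0.05 in edgeR, and 0.0203% of all peaks were called. All of these intervals include 0. Without db/m animal 3, the animal with the highest ratio, the differences were -0.04 for the longer and -0.12 for the shorter Per1 peak, and over the 11 fits that left out 1 animal they ranged from -0.33 to -0.04 and from -0.44 to -0.12.

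**Figure D3:**
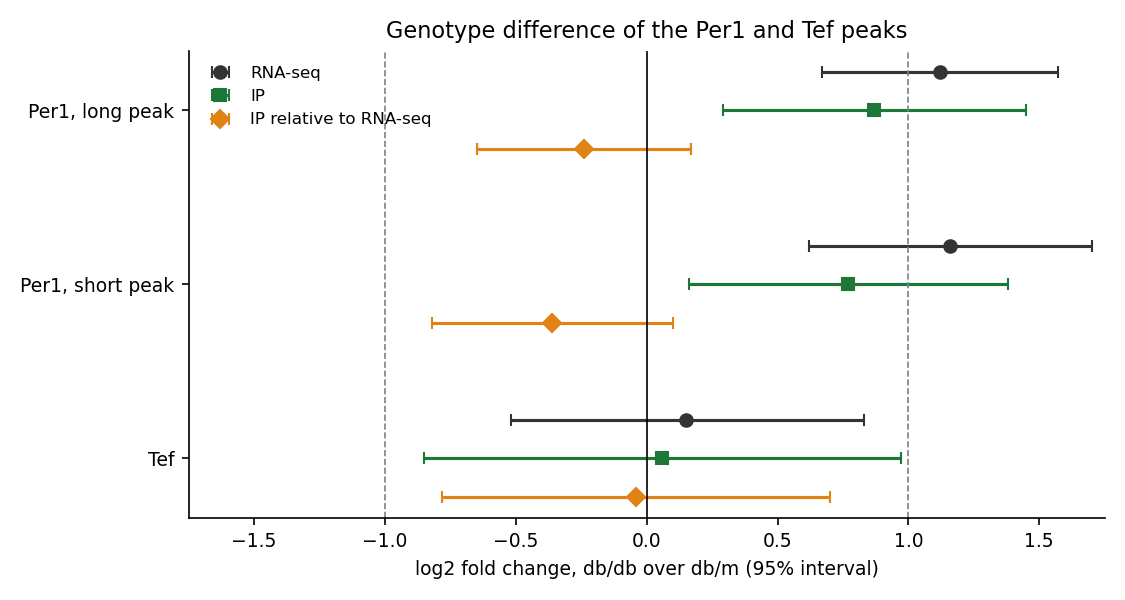
Log2 fold change of db/db over db/m for the longer and shorter Per1 peaks and the Tef peak, with 95% intervals, in RNA-seq (circles), IP (squares) and IP relative to RNA-seq (diamonds). Dashed lines mark the fold threshold of 1 on the log2 scale. Per1 lies at 1.12 and 1.16 in RNA-seq and at 0.87 and 0.77 in IP, and the intervals for Tef and for IP relative to RNA-seq all include 0.

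Animals with more Per1 RNA also had more Per1 IP reads. Across the 11 animals, Pearson's r between RNA-seq and IP levels of the longer Per1 peak on the log2(CPM + 1) scale was 0.87 (permutation p = 0.00035, adjusted over 3 relations p = 0.00105) and Spearman's rho was 0.78 (permutation p = 0.00631, adjusted 0.0189). Without the 2 animals farthest from the median, r was 0.92, with the genotype means removed it was 0.74, and within the 6 db/db mice it was 0.80. For Tef, r was 0.81 (permutation p = 0.00304, adjusted 0.00456) and rho was 0.72 (permutation p = 0.0161, adjusted 0.0242), and r was 0.64 without the 2 farthest animals and 0.85 within db/db mice. Per1 and Tef RNA-seq levels did not track each other over the 11 animals, with r of -0.05 (permutation p = 0.886) and rho of 0.05 (permutation p = 0.88). Without the 2 farthest animals that r was 0.54. The db/m group is too small for a value of its own. The p-values belong to r and rho over all 11 animals, which for Per1 include the genotype difference. No p is given for r with the genotype means removed. The r of other peaks is not given either, so these values have none to be set against.

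**Figure D4:**
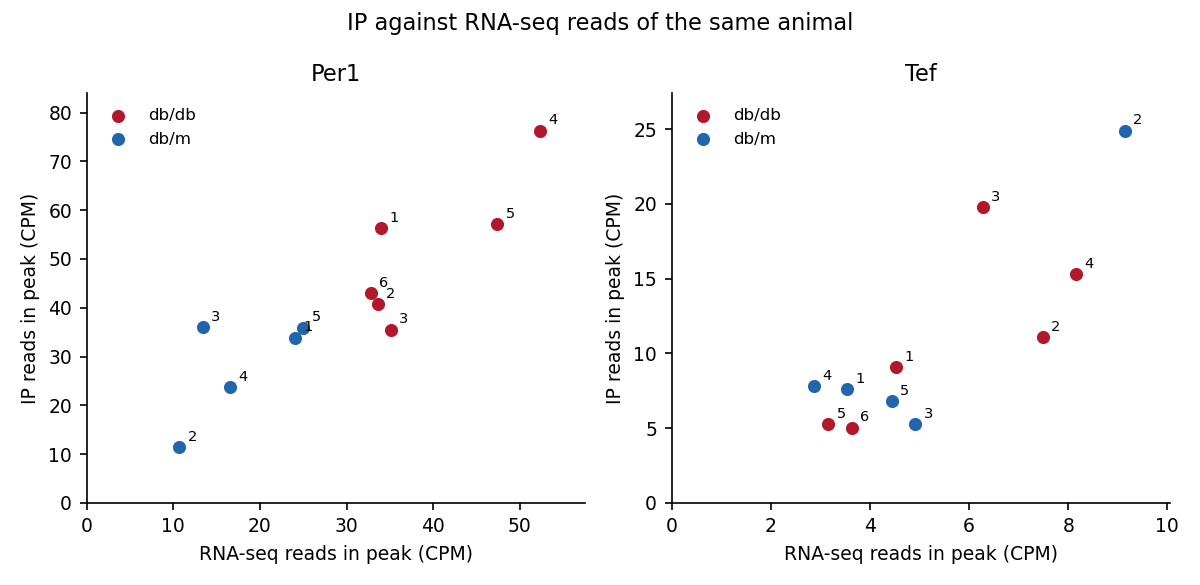
IP level against RNA-seq level of the same animal, both in CPM on linear axes from 0, for the longer Per1 peak (left) and the Tef peak (right). Red points are db/db and blue points are db/m animals, with their numbers. Db/m animal 2 is lowest in both Per1 levels (10.7 and 11.4 CPM) and highest in both Tef levels (9.14 and 24.9 CPM).

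Of 24 further clock genes, 8 had a peak and none of these was called. Each is described by 1 peak, the one with the most RNA-seq reads. They were Rorb, which encodes a nuclear receptor that activates Arntl; Bhlhe40, an E-box repressor; Csnk1e, the casein kinase that phosphorylates the PER proteins; Usp2; Nono; Sfpq; Wdr5; and Sirt1. In RNA-seq 0 of the 8 genes were called by edgeR or DESeq2, near the share of 3.95% over all peaks, and 3 had an unadjusted p under 0.05 in edgeR. In IP 0 of 8 were called by either tool, against 3.32% of all peaks in edgeR, and 2 had an unadjusted p under 0.05. The share of all peaks with an unadjusted p under 0.05 is not given here, so counts at that threshold have no value to be set against. The median log2 fold change of the 8 genes was 0.27 in RNA-seq, against -0.01 over all peaks.

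Csnk1e was the member of this list that passed the adjusted p alone, as 11.3% of all peaks did in RNA-seq. Its peak at chr15:79418515-79418634 had RNA-seq levels of 43.3 ± 12.6 CPM (SD, n = 6) in db/db and 24.6 ± 7.24 CPM (SD, n = 5) in db/m mice. This difference of 0.81 on the log2 scale (SE 0.21, adjusted p = 0.0175, edgeR) was under the fold threshold, and the groups overlapped. The peak came from the db/db list, the group where its level was higher, and the db/m list held other Csnk1e peaks, of 91 and 1695 bases. The share of that selection in the Csnk1e difference was not tested. Bhlhe40 had a log2 fold change of 0.45 (SE 0.17, adjusted p = 0.117, edgeR), and its groups overlapped too. Rorb and Sirt1 had too few RNA-seq reads for a comparison, with at most 2 in any library.

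Genes that the clock is known to influence in the kidney, among them water channels, transporters and metabolic enzymes, included calls in both directions. The list, like the others here, was chosen with earlier results of these data known, so its counts are no independent comparison. Of 18 listed genes 6 had a peak, with a median log2 fold change of 0.65 in RNA-seq against -0.01 over all peaks, and in RNA-seq 2 were called higher (Aqp2 and Pdk4) and 1 lower (Aqp4) in db/db mice, where 3.95% of all peaks were called and 1.98% were called higher. Aqp2, the vasopressin-regulated water channel of the collecting duct, had RNA-seq levels of 44.3 ± 9.36 CPM (SD, n = 6) in db/db and 17.0 ± 4.60 CPM (SD, n = 5) in db/m mice. All db/db animals lay above all db/m animals. In RNA-seq the difference was 1.38 on the log2 scale (SE 0.19, adjusted p = 7.82e-05) and in IP it was 1.56 (SE 0.27, adjusted p = 0.00132), both by edgeR. Aqp3, another water channel of the same cells, was at 0.47 in RNA-seq (adjusted p = 0.0611, edgeR). Aqp4, a water channel of the basolateral membrane, had levels of 14.3 ± 6.75 CPM (SD, n = 6) in db/db and 35.8 ± 15.3 CPM (SD, n = 5) in db/m mice, which differed by -1.32 on the log2 scale (SE 0.30, adjusted p = 0.00594, edgeR). Without db/m animal 2, whose level was 62.7 CPM, it was -1.01 and still called. The Aqp2 peak was named only in the db/db list and the Aqp4 peak only in the db/m list. Each thus entered the peak table only through the group where its level was higher. That selection favours a difference in the direction seen, and its share in these 2 calls was not tested.

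Pdk4, a kinase that slows the use of glucose, had few reads. Its RNA-seq reads numbered 3, 6, 6, 9, 23 and 5 for db/db animals 1 to 6, and db/m animal 1 had 1 read and the other db/m animals 0. The sums of 52 and 1 reads correspond to a ratio of 41.0, with an exact 95% interval from 7.05 to 1650 that covers counting error only. In IP its log2 fold change was 0.71 (SE 1.29, adjusted p = 0.824, edgeR) and it was not called. Slc6a6, the taurine transporter, was called higher in IP (log2 fold change 1.13, SE 0.21, adjusted p = 0.00244, edgeR). In RNA-seq it was 0.94 (SE 0.17, adjusted p = 0.000954, edgeR), under the fold threshold. Scnn1a, the alpha subunit of the epithelial sodium channel, and Por, the electron donor of cytochrome P450 enzymes, were not called.

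Of 11 glucocorticoid-responsive genes, listed because glucocorticoids can switch on Per1, Fkbp5 and Errfi1 had a peak, with a median RNA-seq log2 fold change of 0.63 against -0.01 over all peaks. Fkbp5, which encodes a co-chaperone of the glucocorticoid receptor, was called higher in db/db mice, as were 1.98% of all peaks. Its peak at chr17:28401044-28402710 had RNA-seq levels of 249 ± 77.9 CPM (SD, n = 6) in db/db and 94.1 ± 19.0 CPM (SD, n = 5) in db/m mice, with no overlap. On the log2 scale the difference was 1.41 in RNA-seq (SE 0.20, adjusted p = 8.73e-05) and 1.37 in IP (SE 0.21, adjusted p = 0.000338), both by edgeR. Errfi1, an inhibitor of the EGF receptor, had a log2 fold change of -0.15 (SE 0.23, adjusted p = 0.708, edgeR). Across animals, with the genotype means removed, the RNA-seq level of Fkbp5 had a correlation of 0.05 with that of Per1, a description over 11 animals whose levels share their libraries.

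Of 10 temperature-responsive genes, listed because body temperature can set the phase of tissue clocks, 7 had a peak, with a median log2 fold change of -0.48 in RNA-seq against -0.01 over all peaks. Rbm3, the cold-induced RNA-binding protein, was the 1 member of 7 called in RNA-seq, where 3.95% of all peaks were called. Its peak at chrX:8143249-8144623 had levels of 406 ± 74.0 CPM (SD, n = 6) in db/db and 191 ± 25.7 CPM (SD, n = 5) in db/m mice, with no overlap. Its difference was 1.08 on the log2 scale in RNA-seq (SE 0.14, adjusted p = 3.08e-05) and 1.13 in IP (SE 0.15, adjusted p = 6.28e-05), both by edgeR. The heat shock proteins Hsp90aa1 and Hspd1 were lower in RNA-seq by the adjusted p alone, which 11.3% of all peaks passed, with log2 fold changes of -0.92 (adjusted p = 6.98e-05) and -0.77 (adjusted p = 0.000247) in edgeR. Hspa1a had a log2 fold change of -1.04 (SE 0.45, adjusted p = 0.16, edgeR), with 626 and 772 reads in db/m animals 3 and 4 and 73 to 127 in the other db/m animals. Cirbp, the other cold-induced RNA-binding protein of the list, was at 0.09 (adjusted p = 0.85, edgeR). The RNA-seq calls of Aqp2, Aqp4, Pdk4, Fkbp5 and Rbm3 held in each of the 11 fits that left out 1 animal.

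**Figure D5:**
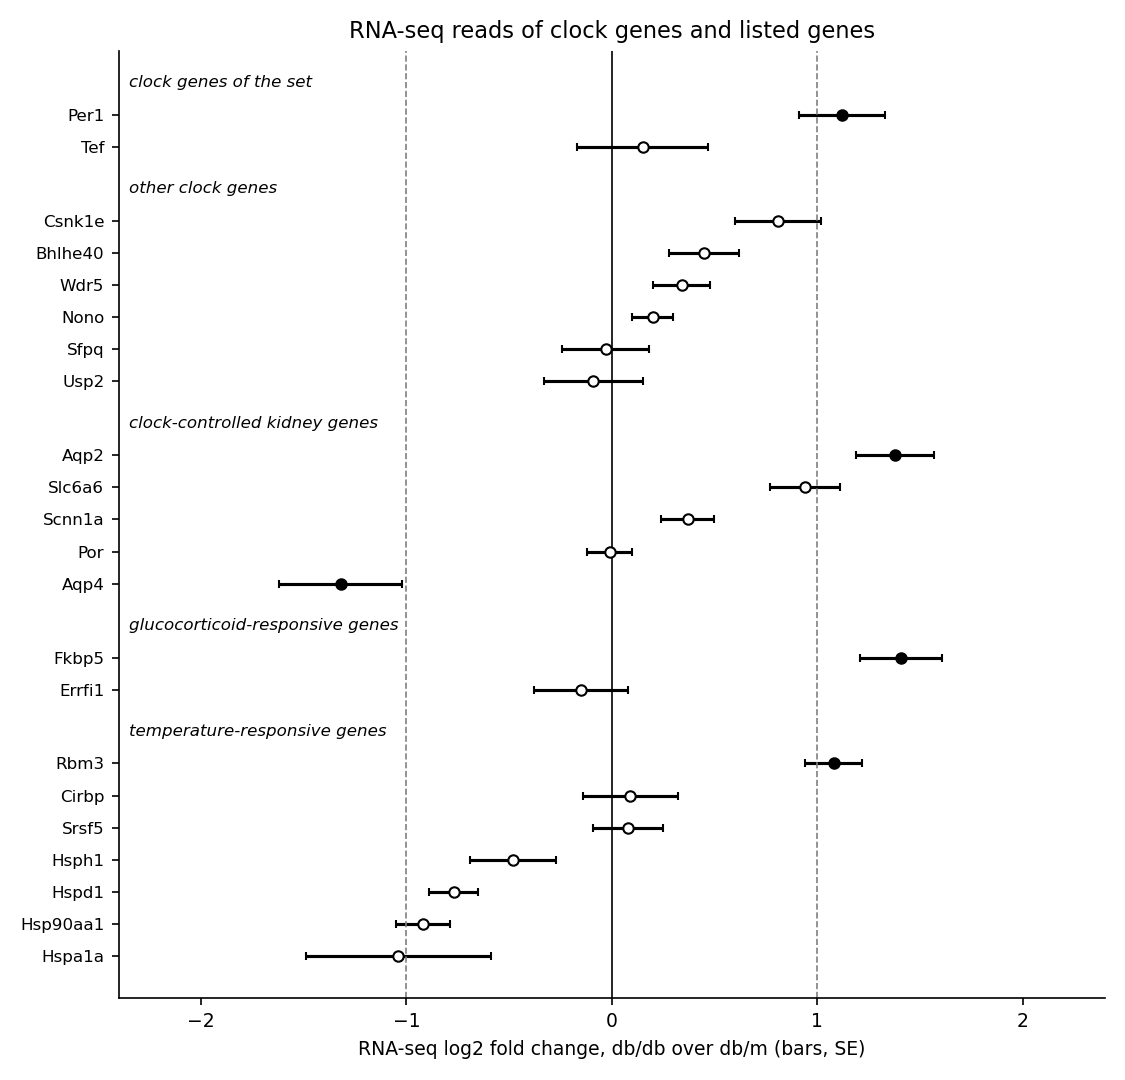
RNA-seq log2 fold change of db/db over db/m for the clock genes and the listed genes that had a peak averaging 10 or more RNA-seq reads, 1 peak per gene, with bars of 1 SE. Filled points were called (adjusted p under 0.05 and beyond the dashed lines at -1 and 1) and open points were not. Per1 (1.12), Aqp2 (1.38), Fkbp5 (1.41) and Rbm3 (1.08) are called higher, Aqp4 (-1.32) is called lower, and no other clock gene is called.

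Other genes were ranked by how closely their RNA-seq levels followed Per1 across animals. The clock genes described here were left out of this ranking, and few further clock genes had enough reads to enter it. It therefore cannot show whether Per1 varied with other clock genes. With genotype means removed, over the 11 animals and 2299 genes with a mean of at least 50 reads in a peak, the highest Pearson r with the longer Per1 peak were those of Oaz2 (0.90), Wbp1l (0.84), Slc30a2 (0.83), Spint2 (0.81) and Lrrfip2 (0.81). The lowest were those of Ecd (-0.87), Safb (-0.85), Terf2ip (-0.79), Iws1 (-0.79) and Mia2 (-0.78). None of these 10 was called between the genotypes in RNA-seq, where 3.95% of all peaks were called. Wbp1l (log2 fold change 0.46, adjusted p = 0.0454) and Lrrfip2 (0.50, adjusted p = 0.0137) passed the adjusted p alone in edgeR, as 11.3% of all peaks did. The points share libraries and depth, and the values are a description. Tef had an r of -0.35 with Per1 on this scale. The further clock genes with enough reads had r of -0.65 (Sfpq), -0.15 (Bhlhe40), 0.28 (Nono), 0.33 (Csnk1e) and 0.55 (Wdr5).

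Of the 3 proximal tubule markers with a peak, 1 was called in RNA-seq, where 3.95% of all peaks were called. By the adjusted p alone 2 were lower in db/db mice, and 11.3% of all peaks passed it in either direction. The summed RNA-seq level of 3 proximal tubule markers (Slc34a1, Lrp2 and Slc5a2, of 5 listed) was 761 ± 261 CPM (SD, n = 6) in db/db and 1190 ± 31.1 CPM (SD, n = 5) in db/m mice. Of these, Lrp2 had a log2 fold change of -0.90 (adjusted p = 0.0033) and Slc34a1 one of -1.05 (adjusted p = 0.0141) in edgeR, and Slc5a2 one of -0.16. Peaks of Lrp2 were named only in the db/m list, the group where its level was higher, and those of Slc34a1 and Slc5a2 in both lists. The share of that selection in the Lrp2 difference was not tested. Slc34a1 was called lower in RNA-seq, but in 7 of the 11 fits that left out 1 animal. Leaving out any of db/db animals 2, 3 and 5, or the first db/m animal, ended the call, and the log2 fold change ranged from -1.37 to -0.92. In whole kidney, fewer cells of a type and less RNA per cell cannot be told apart. The sum was 516 to 881 CPM in db/db animals 1 to 5 and 1230 CPM in animal 6, against 1150 to 1220 CPM in db/m mice. The part of the tubule markers in the Per1 difference was not tested.

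Transcripts typical of lung were present in the IP libraries of some db/db animals. The summed IP level of Sftpc, Sftpa1 and Scgb1a1, of 4 lung genes listed, was 45.7, 32.5, 31.9 and 10.9 CPM in db/db animals 1 to 4, 0.223 and 0.206 CPM in animals 5 and 6, and at most 0.424 CPM in db/m animals. Sftpc, the surfactant gene with the most IP reads in the animals that had them, held 193, 151, 135 and 45 IP reads in animals 1 to 4 and at most 1 read in any other IP library. In RNA-seq the sum was at most 0.951 CPM in any library. The part of these transcripts in the IP values of the clock genes was not tested.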

How the data were processed

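The members and all gene lists were chosen with earlier results of these data known. Per the labels, 11 kidneys each gave an ac4C IP and an RNA-seq library. The authors deposited raw read counts per library for 9857 ac4C peaks (GRCm38 in the submitters' processing notes), with 4909 peaks named for db/db and 4948 for db/m. The aligner, the peak caller and the counting rule are not given in the sources used here. The deposited table also holds the authors' fold enrichment (a linear ratio, repeated as a score), p-values of the peaks, and a log2 change with p-values between the genotypes. That authors' comparison was not used. Peak starts count from 0 (adding 1 put 103 on a RefSeq gene start, the start as given 8) and are given from 1.

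Counts were fitted in R 4.3.3 with edgeR 4.0.16 (TMM, glmQLFit, glmQLFTest), apart for IP and RNA-seq by genotype, and for IP relative to RNA-seq over 22 libraries with animal, library type and their interaction with genotype. Because the relative fit took its spread from a trend over all peaks, limma 3.58.1 on log2 ratios was an alternative. p-values were adjusted over all peaks by the Benjamini-Hochberg method. Single peaks were compared on log2(CPM + 1) by two-sided exact permutation tests (scipy 1.17.1), and correlations by 100000 permutations. All fits were tried on simulated data, whose outcome is not given here. Alternatives were DESeq2 1.42.0, no TMM, filterByExpr, no fold threshold, peaks of at most 1000 bases, a block of animal numbers and each animal left out.

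The text names every clock gene peak, up to 4 genes per further list (called in RNA-seq first, then by size of change), and the 5 genes most and least like the clock gene peak with the most RNA-seq reads, since Dbp, planned for that, has no peak. Some list genes are not reported here and were left out of the counts. Other genes of a list are named only to account for its members. Each animal is 1 replicate: no pair of libraries within a genotype and type matched within sampling noise. A clock gene peak held 9 to 167 RNA-seq reads per library, and the precision of each difference is given by its SE.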

Additional observations from a re-analysis of the deposited data

Results flagged for a closer look

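Groups of animals were searched for a sample whose gap to its nearest neighbour took up more of the group's range than Dixon's 95% value allows. This was done for IP and RNA-seq CPM of the clock gene peaks and 14 named genes (with a mean of at least 10 reads), and for the ratio of IP to RNA-seq CPM of the clock gene peaks. Of 64 groups tested 6 held such a sample, and chance alone gives about 1 in 20, or 3.2.

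Db/m animal 2 accounted for 2 of the 6. Its IP level over Tef was 24.9 CPM, where the other db/m animals had 5.27 to 7.83, and over Aqp4 it had 62.7 CPM in RNA-seq (others 25.7 to 32.3). Db/m animal 3 had the highest ratio of IP to RNA-seq over both Per1 peaks, 2.69 over the longer one (others 1.07 to 1.44) and 4.29 over the shorter one (others 1.5 to 1.95), which share their reads. Db/db animal 3 had a ratio of 3.15 over Tef (others 1.39 to 2.01). Db/db animal 6 had an IP level of 438 CPM over Hspd1 (others 244 to 316).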

How the results depend on the processing

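The RNA-seq difference of Per1 kept its direction under all 17 alternatives, with log2 fold changes from 0.99 to 1.27 for the longer and 0.99 to 1.35 for the shorter peak, and dropped under the fold threshold without db/m animal 2 (0.99 for both). The IP difference of Per1 stayed higher in db/db mice and uncalled under all of them, although its adjusted p was 0.0287 with DESeq2, 0.0405 without TMM and 0.0142 with the replicate block. Leaving out 1 animal at a time gave 0.67 to 1.0 for the longer peak. The same fits gave -0.20 to 0.66 for Tef in IP, 0.01 to 0.50 in RNA-seq and -0.24 to 0.13 relative to RNA-seq, so Tef had no stable direction in IP or in the relative fit. Leaving out 1 animal at a time in the permutation tests on the log2(CPM + 1) scale, an alternative chosen after seeing the data, gave -0.07 to 0.46 for Tef in IP, -0.22 to 0.10 for Tef relative to RNA-seq, and 0.52 to 0.96 for the shorter Per1 peak in IP, where the exact permutation p ranged from 0.00794 to 0.0667. Over all peaks, calls without a fold threshold numbered 636 in IP (327 with it) and 1111 in RNA-seq (389 with it). The relative fit called 2 peaks, 0 with DESeq2, filterByExpr or limma, and 1 to 5 with an animal left out. Those left-out fits called 276 to 411 peaks in IP and 332 to 480 in RNA-seq. Whether animal numbers pair the genotypes cannot be settled from 5 pairs per library type. In each type 2 of 5 same-numbered pairs correlated above 0.1, and r ranged from -0.25 to 0.21 in IP and from -0.4 to 0.51 in RNA-seq. Of the libraries, 0 of db/m, 1 db/db IP library and 2 db/db RNA-seq libraries correlated best with their own number. The replicate block, which fits the animal number and drops db/db animal 6, called 449 peaks in IP and 461 in RNA-seq. Leaving out db/db animal 6 alone called 411 and 480. With the block the longer Per1 peak had log2 fold changes of 1.20 in RNA-seq (adjusted p = 5.7e-09, edgeR) and 1.0 in IP (adjusted p = 0.0142, edgeR, just under the fold threshold). Tef relative to RNA-seq was 0.06 with it, and the relative fit called 0 peaks. The cause of these shifts was not tested. The Tef peak held 9 to 29 RNA-seq reads per library, and its SE was 0.32 in RNA-seq and 0.43 in IP, where it held more reads (means of 17.1 and 96.6).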

Other observations

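Other cell types of the kidney were represented as follows. The summed RNA-seq level of the collecting duct markers (Aqp2, Aqp3 and Atp6v1g3, all 3 listed) was 912 ± 131 CPM (SD, n = 6) in db/db and 818 ± 131 CPM (SD, n = 5) in db/m mice, and of these Aqp2 was called and Atp6v1g3, a subunit of the proton pump of intercalated cells, had a log2 fold change of 0.01. Of the 2 thick ascending limb markers Slc12a1 had a peak, at 0.06 (adjusted p = 0.907, edgeR). The podocyte markers Nphs1 and Podxl were at 0.42 (adjusted p = 0.16) and 0.33 (adjusted p = 0.436) in RNA-seq by edgeR, and neither was called. Of 4 endothelial markers Kdr was at -0.40 (adjusted p = 0.131, edgeR) and Emcn had too few reads. The 2 distal convoluted tubule markers had no peak. Of 4 immune cell markers C1qa had one, at 0.47 (adjusted p = 0.588, edgeR), with the highest RNA-seq level, 36.0 CPM, in db/db animal 3. Adipocyte and adrenal cortex markers summed to at most 0.316 and 0.602 CPM in any RNA-seq library.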
